A study of Mus musculus with 4 samples.

Results

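Cyclic nucleotide phosphodiesterases are the enzymes that hydrolyse the second messengers cyclic AMP and cyclic GMP and so set how long and how far these signals spread in a cell. 10 genes of the family were followed here, Pde1a, Pde1c, Pde2a, Pde4b, Pde4d, Pde7b, Pde8b, Pde9a, Pde10a and Pde11a, of 55422 entries in the deposited gene lists. They were given as a list of names, found in the files by their Ensembl identifiers, and selected on measured values in the sense that the list was drawn up with UMI sums per library and cell class in view. Their levels by class are therefore a description without a test. 14 further phosphodiesterase genes belong to the list of 69 cyclic nucleotide pathway genes used for comparison.

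The data are single-nucleus RNA-seq libraries of the mouse hippocampus, made on the 10x Chromium platform. 2 libraries come from Control mice (genotype Kat6a-f/f, the Kat6a gene flanked by loxP sites with no Cre) and 2 from Kat6a-cKO mice (NEX-cre, Kat6a-f/f). All mice were adult and all carried the floxed alleles, and the sources used here give no exact age, sex, strain or number of animals per library, so that p-values measure the spread between libraries, which may in part be technical. Kat6a encodes a histone acetyltransferase, and NEX-cre is expressed from the Neurod6 locus in postmitotic excitatory neurons of the forebrain, so that interneurons and glia are mostly not its target. Only the Kat6a-cKO mice carried NEX-cre, so loss of Kat6a cannot be told apart from the presence of the NEX-cre allele in any comparison below. The libraries held 171323466 to 186897245 UMIs, and 7613 to 8144 nuclei per library passed a minimum of 5000 UMIs and a doublet filter. Any pair of libraries shared 14 to 18 cell barcodes.

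Nuclei were clustered without the phosphodiesterases and other pathway genes, and clusters were named from marker genes, so every class name below means nuclei like that type. 16 classes carried a name. The subicular-like class joins 4 clusters with different leading genes. Levels are in CPM, the UMIs of a gene per 1000000 UMIs of the class in 1 library, with the SD over the 4 libraries of both genotypes. The counts are not corrected for gene length, so levels are compared between classes and not between genes. Beside several low levels stands the most that free RNA could give, which is the profile of barcodes with 10 to 100 UMIs scaled as high as the markers foreign to the class, and the members themselves, allow. The Cre entry of the gene list had 0 counts in the Control libraries and 255 in the Kat6a-cKO libraries over the 13 classes tested. In the 2 Kat6a-cKO libraries it had 2.25 and 1.91 CPM in CA1 and 2.20 and 2.97 in CA3, but 0.14 and 0.19 in dentate granule nuclei, from 5 and 6 counts, and 0 and 0.20 in interneurons. Kat6a itself ranged from 61.3 to 203 CPM over classes in Control and from 53.8 to 167 in Kat6a-cKO, with log2 fold changes of -0.20 to 0.01 and 0 of 13 called. The deleted exons are not given in the sources used here, so these gene-level counts do not check the deletion.

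In nerve cells the family is divided by what activates each enzyme and by what it cleaves. PDE1 enzymes are switched on by calcium and calmodulin, PDE2 by cyclic GMP, PDE4, PDE7 and PDE8 cleave cyclic AMP, PDE9 cleaves cyclic GMP, and PDE10 and PDE11 cleave both. PDE4 enzymes are the targets of the inhibitor rolipram, which is known to affect hippocampal memory in rodents, PDE10A is known from the striatum, and PDE11A is known in the brain mainly from the ventral hippocampus.

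The promoters of 3 members are shown because the mean levels of Pde11a, Pde4b and Pde7b differed most between their highest and lowest class. Each window runs from 250 bases before to 50 bases after a RefSeq transcription start on GRCm38.p6, in the direction of the gene, 5′ to 3′. Capitals mark the letters TGACG or CGTCA, which are the 2 strands of the half-site of the cyclic AMP response element.
Pde11a promoter: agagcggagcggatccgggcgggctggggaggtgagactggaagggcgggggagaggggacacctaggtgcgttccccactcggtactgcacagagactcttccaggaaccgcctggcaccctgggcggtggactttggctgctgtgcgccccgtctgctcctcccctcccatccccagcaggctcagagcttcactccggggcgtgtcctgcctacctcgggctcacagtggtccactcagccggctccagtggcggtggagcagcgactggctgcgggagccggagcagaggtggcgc
Pde4b promoter: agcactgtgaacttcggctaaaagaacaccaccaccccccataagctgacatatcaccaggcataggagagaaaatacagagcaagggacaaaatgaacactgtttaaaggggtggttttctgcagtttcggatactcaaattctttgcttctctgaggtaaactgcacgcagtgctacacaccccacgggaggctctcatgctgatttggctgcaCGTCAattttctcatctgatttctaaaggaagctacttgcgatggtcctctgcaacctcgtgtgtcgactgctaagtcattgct
Pde7b promoter: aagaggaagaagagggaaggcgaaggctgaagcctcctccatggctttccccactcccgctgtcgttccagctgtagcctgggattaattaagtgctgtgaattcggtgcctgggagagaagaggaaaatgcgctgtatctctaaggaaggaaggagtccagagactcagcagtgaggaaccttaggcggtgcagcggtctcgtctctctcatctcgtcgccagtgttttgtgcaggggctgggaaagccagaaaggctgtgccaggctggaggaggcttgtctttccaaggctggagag
The Pde11a window is at chr2:76338889-76339188 on the minus strand, and the Pde7b window is at chr10:20548279-20548578 on the minus strand, within the Pde7b gene body. The Pde4b window, at chr4:102421305-102421604 on the plus strand, is also within its gene body and is shown because it is the only one of the 4 windows of that gene with the half-site. In all, 9 of the 10 members matched the table, with 26 windows, and Pde9a did not. The half-site was found in 4 of the 26 windows and in 20.8% of 32851 windows of the same length, and the full palindrome TGACGTCA, searched likewise, in 0 of 26 and in 1.79%. A match is a description of these letters only. Gene-level counts cannot tell which start was used.

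The 2 calmodulin-dependent genes were highest in different classes, and both were low in dentate granule nuclei. Pde1a was highest in excitatory neurons outside the dentate gyrus. The top levels were in deep-layer excitatory nuclei, at 1529 and 1714 CPM in the Control libraries against 1959 and 1849 in Kat6a-cKO, and in ventral CA1 nuclei, at 1600, 1534, 1956 and 1643 CPM in the same order. The ranges of these classes overlapped. CA2 (1382 ± 58.9 CPM, SD, n = 4), ventral CA3 (1305 ± 41.0) and CA1 (1270 ± 48.6) followed, again with overlapping ranges, and CA3 was lower, at 698 ± 52.9 CPM. Dentate granule nuclei had 121 ± 16.9 CPM of Pde1a, and astrocytes had 28.8 ± 2.81, a level low enough that all of it could be free RNA, for which Pde1a itself set the bound in 3 of 4 libraries. CA3 was thus the lowest of the CA classes for Pde1a, and 34.0% of its UMIs came from CA1 nuclei, which were 17.2% of all nuclei. Among the named classes Pde1c was highest in oligodendrocyte precursors (OPC), the dividing glial progenitors, at 215 ± 34.3 CPM. Oligodendrocytes had 182 ± 50.0 CPM, with overlapping ranges. Pde1c was lowest in dentate granule nuclei, at 25.9 ± 3.37 CPM, where free RNA could give up to 3.80. Within the pyramidal classes it stayed between 28.0 CPM in CA1 and 62.2 CPM in ventral CA3. The unnamed cluster 37 held 0.12% of the nuclei and gave 0.68% ± 0.84 (SD, n = 4) of the Pde1c UMIs.

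Pde2a, whose product is stimulated by cyclic GMP, was low in every named class. Its mean level was between 0.58 CPM in immature dentate nuclei and 2.21 CPM in CA1, and neighbouring classes overlapped in range throughout the order. Free RNA could give up to 0.020 CPM of it in CA1. The annotation limits what can be read from this. The Pde2a gene lies at chr7:101421691-101512827 on the plus strand of mm10, and the predicted gene Gm45837 on the same strand, at chr7:101410886-101512819, covers 64.3% of its exon bases and nearly its whole gene body. Gm45837 itself had a mean of 0.099 CPM over all nuclei, so the shared reads were not counted under it in any number. How reads shared by overlapping genes were counted is not given in the sources used here, so the Pde2a level is uncertain.

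Among the cyclic AMP-specific genes, Pde4b had its highest levels by named class in the oligodendrocyte lineage. In oligodendrocytes it had 10433 and 9552 CPM in the Control libraries against 10466 and 9104 in Kat6a-cKO. In OPC nuclei it had 1509 ± 66.5 CPM, and no other named class overlapped either one. Among nuclei with at least 5000 UMIs, oligodendrocytes were 1.34% of the nuclei and gave 15.05% of the Pde4b UMIs. With a minimum of 2000 UMIs the class had 722 to 1014 nuclei per library, against 56 to 167 here, so its share of the nuclei depends on the minimum. The named neuronal classes spanned a wide range, from 716 ± 48.4 CPM in the subicular-like class and 681 ± 40.3 in CA2 through 410 ± 82.4 in CA3 and 162 ± 25.6 in CA1 to 28.9 ± 1.36 in dentate granule nuclei. The oligodendrocyte mean was 342-fold the dentate granule mean. Free RNA could give up to 18.2 CPM of Pde4b in dentate granule nuclei. A cluster led by Tcf7l2, Bcas1 and Enpp6, genes known from newly formed oligodendrocytes, was left unnamed and had 2451 ± 110 CPM of Pde4b, between the OPC and oligodendrocyte levels. 5 other unnamed clusters had means of 1294 to 2208 CPM, above every named neuronal class. Among them were cluster 12 of 616 nuclei (1294 ± 64.3) and cluster 26 of 235 nuclei (2208 ± 231), whose mean was also above that of OPC. Clusters 28, 30 and 36 were also among them. Their astrocyte and oligodendrocyte markers stood at 1.82 to 2.04, 1.10 to 1.48 and 0.80 to 1.10 times the free RNA profile. In CA1 this ratio was 0.042 to 0.054, so the Pde4b in these clusters need not be neuronal.

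Pde4d had another order. CA2 nuclei had 4703 ± 339 CPM and Lamp5 interneurons, a group that includes neurogliaform cells, had 4668 ± 298, with overlapping ranges. CA3 came next, at 3656 and 3429 CPM in the Control libraries against 3168 and 3276 in Kat6a-cKO, with no overlap with its neighbours in the order. Ventral CA3 had 2672 ± 110 CPM, CA1 880 ± 81.5 and dentate granule nuclei 413 ± 27.8, the lowest mean of the 16 classes. The Lamp5 interneurons were not uniform for Pde4d. The cluster led by Hapln1 and Mctp2 had 5552 ± 286 CPM and the cluster led by Reln and Egfr 843 ± 141.

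Pde7b separated the dentate gyrus from the CA fields. Dentate granule nuclei had 400 and 371 CPM in the Control libraries against 416 and 412 in Kat6a-cKO, and they gave 82.7% ± 1.82 (SD, n = 4) of all Pde7b UMIs while being 38.9% of the nuclei. Glia reached similar or higher levels, with 539 ± 34.4 CPM in OPC and 515 ± 94.6 in astrocytes. Astrocytes overlapped in range with both OPC and granule nuclei, while every OPC library was above every granule library. CA1 nuclei had 7.79 ± 2.31 CPM and CA3 nuclei 3.03 ± 0.63, where Pde7b itself set the bound on free RNA in 3 of 4 libraries. The mean in OPC was 178-fold that in CA3, and the CA3 level could be all free RNA. Immature dentate nuclei, which carried Sox11 and Igfbpl1 among their leading genes, had 81.7 ± 21.5 CPM of Pde7b, below every mature granule library.

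Pde8b, which encodes a high-affinity cyclic AMP phosphodiesterase, was highest in astrocytes, at 922 and 823 CPM in the Control libraries against 966 and 907 in Kat6a-cKO, above every other named class. Dentate granule nuclei followed with 493 ± 28.1 CPM, and oligodendrocytes were lowest with 82.0 ± 59.8, a mean raised by 1 library at 170.9 CPM, and free RNA could give up to 19.4. It was present in every class, with 248 ± 11.4 CPM in CA3 and 348 ± 24.6 in CA1. Within the dentate granule class, cluster 4, led by Gm6999, Mylk3 and Sv2c, had 697 ± 49.5 CPM of Pde8b and the other 3 clusters 426 to 466.

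**Figure D1:**
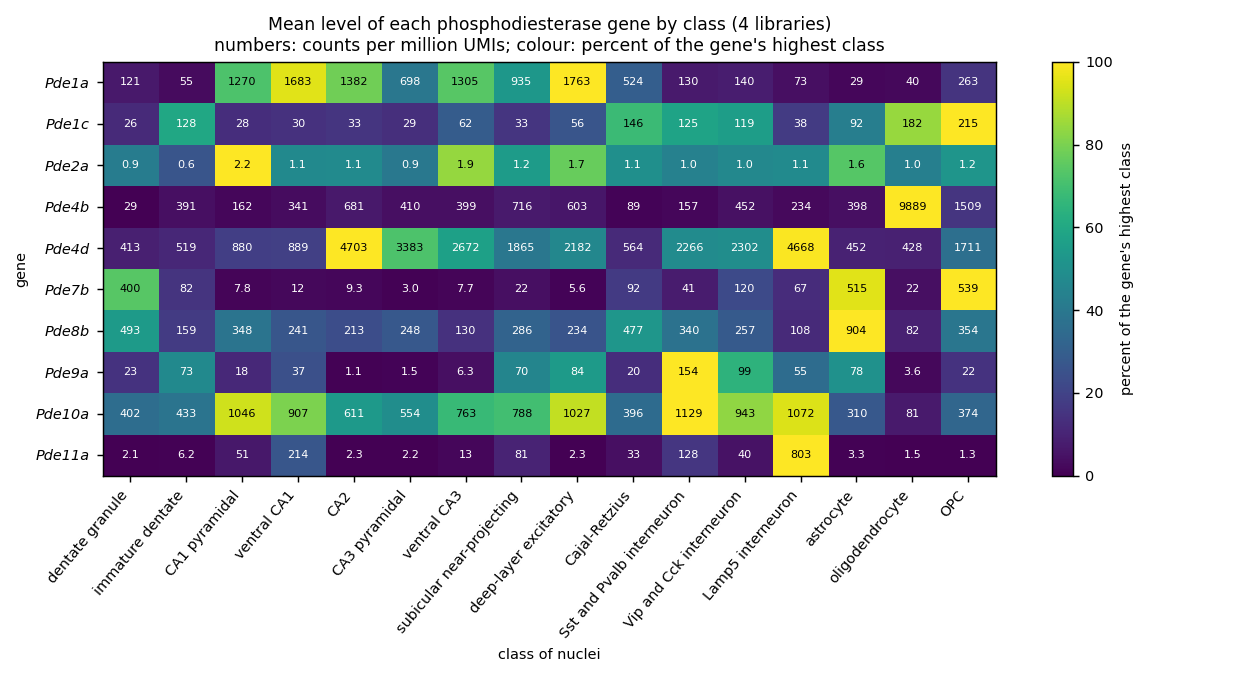
Heat map of the mean level of each of the 10 phosphodiesterase genes (rows) in each of 16 named cell classes (columns) over 4 libraries, with the CPM printed in each square and the colour giving it as a percent of the highest class of that gene. Pde4b peaks in oligodendrocytes (9889 CPM), Pde11a in Lamp5 interneurons (803 CPM) and Pde8b in astrocytes (904 CPM). Pde2a is low in every class, but its level is uncertain because another gene overlaps it on the same strand.

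Pde9a, the cyclic GMP-specific member, was highest in Sst and Pvalb interneurons, at 154 ± 8.30 CPM, followed by Vip and Cck interneurons at 99.4 ± 10.0 CPM. The 2 groups did not overlap. In CA3 it had 1.54 ± 0.64 CPM, from 10 to 29 UMIs per library, and in CA2 1.11 ± 0.68, from 1 to 5 UMIs per library, where free RNA could give up to 0.57 and 0.41 CPM. CA1 nuclei had 17.9 ± 1.73 CPM of Pde9a and dentate granule nuclei 22.6 ± 2.40, so within the main excitatory classes the gene was lowest in CA2 and CA3.

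The dual-specificity genes Pde10a and Pde11a each had an interneuron group as the named class with the highest mean. Pde10a differed little among the upper classes: Sst and Pvalb interneurons had 1129 ± 73.8 CPM, Lamp5 interneurons 1072 ± 67.9 and CA1 pyramidal nuclei 1046 ± 50.5, all with overlapping ranges. CA3 had 554 ± 37.4 CPM, dentate granule nuclei 402 ± 11.1 and oligodendrocytes 80.8 ± 11.5, where free RNA could give up to 42.3. Within CA1 the Pde10a level was uneven. Cluster 6, led by genes that include Stac and Mlip, had 1725 ± 149 CPM, and clusters 1 and 8 had 793 ± 41.0 and 813 ± 98.6. The highest Pde10a level of any cluster, 2621 ± 515 CPM, was in the unnamed cluster 33 of 68 nuclei, led by Nr4a3, Mlip, Hgf and Bdnf. Nr4a3 and Bdnf are known as genes induced by neuronal activity. A further unnamed cluster of 54 nuclei with Bdnf among its leading genes, cluster 35, had 1770 ± 660 CPM of Pde10a.

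Pde11a had its highest level in 1 group of interneurons. Lamp5 interneurons had 797 and 804 CPM in the Control libraries against 820 and 793 in Kat6a-cKO, and were 1.80% of the nuclei with 25.4% ± 2.85 of the Pde11a UMIs. Ventral CA1 gave 20.2% of them, CA1 17.8%, the unnamed cluster 12 10.4% and Sst and Pvalb interneurons 10.2%. By level, ventral CA1 came next, at 177 and 207 CPM in the Control libraries against 284.1 and 187.3 in Kat6a-cKO. Sst and Pvalb interneurons had 128 ± 14.98 CPM, the subicular-like class 80.7 ± 27.9 and CA1 51.3 ± 18.0. Ventral CA3 had 13.2 ± 8.52 CPM of Pde11a, a mean raised by a Control library far above the others. CA3 had 2.20 ± 0.21 CPM, where free RNA could give up to 0.82. The ventral class of each CA field thus had the higher level, with no overlap between the paired classes. In dentate granule nuclei the level was 2.11 ± 0.28 CPM, where free RNA could give up to 1.21. Within the Lamp5 class, Pde11a was also higher in the Hapln1 cluster, at 914 ± 32.3 CPM, than in the Reln cluster, at 334 ± 70.8.

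**Figure D2:**
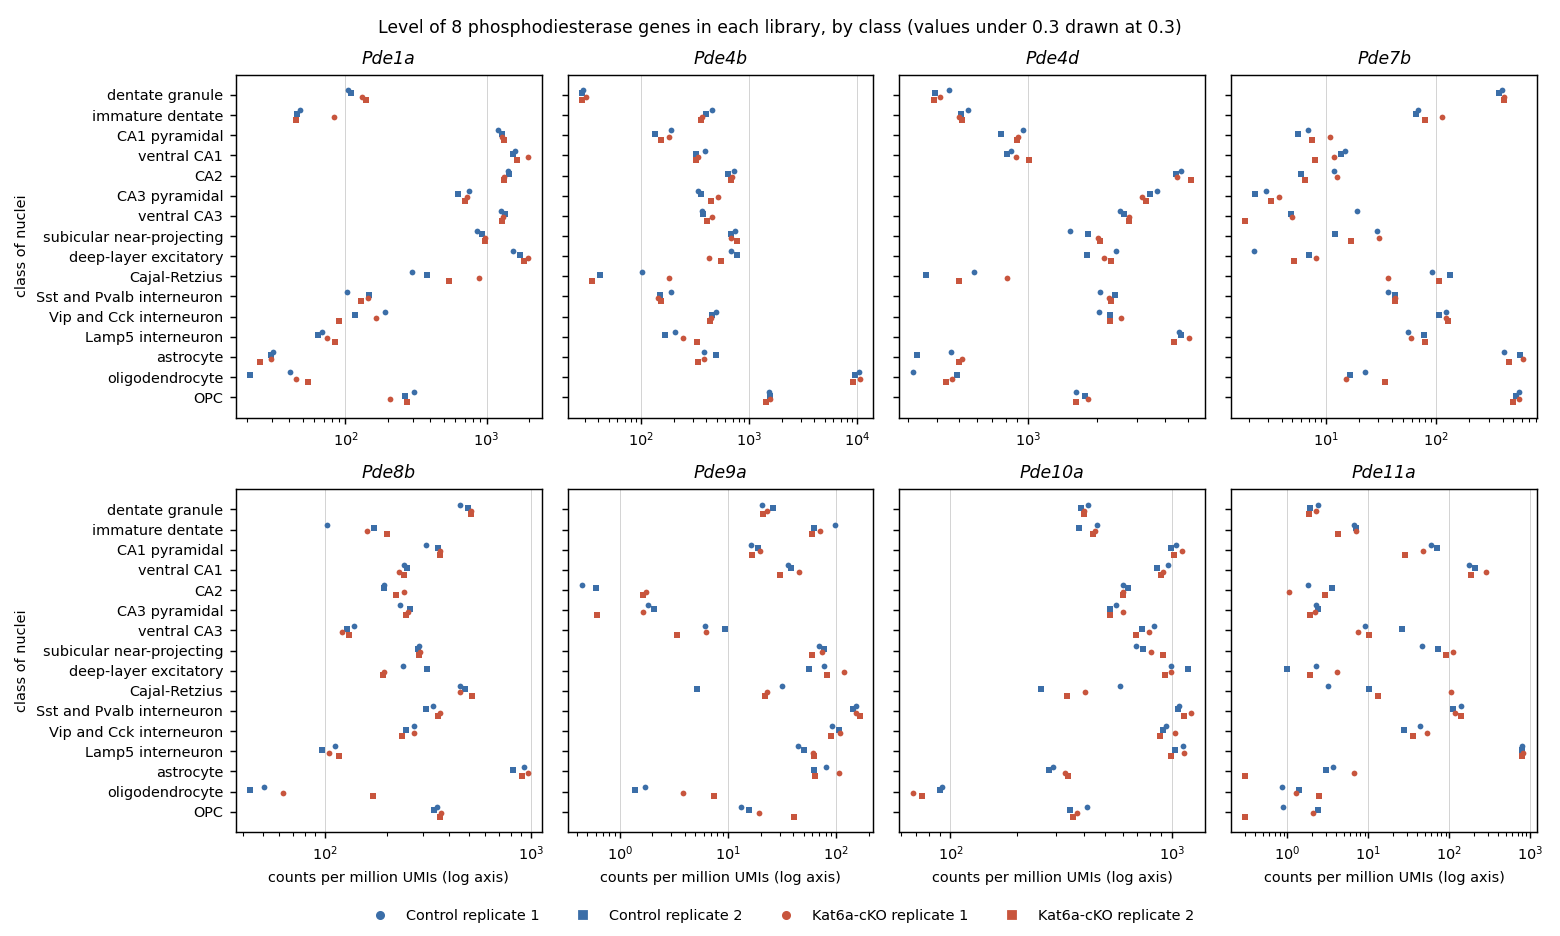
CPM on a log axis of 8 phosphodiesterase genes in each named cell class, 1 point per library, with Control and Kat6a-cKO libraries in different colours and values below 0.3 drawn at 0.3. The 4 Pde4b points in oligodendrocytes lie between 9104 and 10466 CPM, and the 4 Pde7b points in dentate granule nuclei between 371 and 416 CPM.

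Other phosphodiesterases on the pathway list had their own orders of classes. Pde8a was highest in oligodendrocytes, at 823 ± 155 CPM, where its relative Pde8b was lowest. Pde3a and Pde5a were both highest in Vip and Cck interneurons, at 463 ± 26.0 and 162 ± 21.6 CPM. Pde1b, the third calmodulin-dependent gene, was highest in dentate granule nuclei, at 34.1 ± 2.27 CPM.

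For each member the genes with the most similar pattern were taken by the Pearson correlation of log2(mean CPM + 1) over the 16 named classes, among 11612 genes. The classes share libraries, depth and free RNA, and correlations over 16 points are a description. Pde1a was closest to Homer1 (r = 0.943), Slc9a2 and Fhl2, Pde4d to Arhgap22 (0.935), Gm3248 and Cadps, and Pde10a to Gm14443 (0.932), Krt222 and Pitpnm1. Pde1c was closest to Ppp2r3c (0.935), Rexo5 and Zfp426, and Pde7b to Elk3 (0.926), Cdc42ep4 and Ndufa9. Pde11a was closest to Kcns3 (0.886), with Gm48791 also among its 3 nearest genes, Pde4b to Gm39526 (0.872), Tbccd1 and Gle1, and Pde9a to Bex1 (0.846), Mef2c and Stk38. The nearest genes were less close for Pde8b, with Ttll3 (0.812), Paqr7 and Nt5c2, and for Pde2a, with Coq10b (0.715), Cwc25 and Slc16a1. Among the members themselves the highest correlations were those of Pde10a with Pde4d (0.610) and with Pde11a (0.610), and the lowest was that of Pde1a with Pde7b (-0.69).

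The study's comparison is Kat6a-cKO against Control. It was made in each of 13 classes on UMI sums per library with edgeR's quasi-likelihood test across all genes, where a call means a Benjamini-Hochberg adjusted p under 0.05 over every gene tested. None of the 10 members was called in any of these classes. Interneurons were tested as a pooled class, so the Lamp5, the Sst and Pvalb, and the Vip and Cck groups had no test of their own. By DESeq2, 3 were called, Pde4b in CA3, Pde1a in dentate granule nuclei and Pde11a in the subicular-like class. The rule for the members names no genotype contrast, but the list was drawn up with earlier results known, so counts of members are given as a description.

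In CA3 the member with the clearest difference was Pde4b. It had 332 and 358 CPM in the Control libraries against 513 and 439 in Kat6a-cKO, and the groups did not overlap. The log2 fold change was 0.48 (SE 0.087, edgeR adjusted p = 0.138), while DESeq2 gave an adjusted p of 0.00163. Leaving out Kat6a-cKO replicate 1 raised the edgeR adjusted p to 0.638, and over 12 alternatives the adjusted p ran from 5.41e-09 to 0.638. Because Pde4b is far higher in oligodendrocytes, the oligodendrocyte markers in CA3 nuclei were summed: they came to 58.0 and 58.9 CPM in the Control libraries against 52.6 and 46.9 in Kat6a-cKO, with 0 of 7 markers higher in both Kat6a-cKO libraries and 4 lower. OPC markers summed to 43.5 and 63.8 CPM in the Control libraries against 63.3 and 57.6 in Kat6a-cKO, with 3 of 5 higher and 1 lower. Astrocyte markers summed to 41.5 and 39.9 against 45.8 and 43.1 CPM, with 5 of 7 higher and 0 lower. Markers of ventral CA3 summed to 35.2 and 34.6 CPM in the Control libraries against 41.9 and 33.4 in Kat6a-cKO. Those of the subicular-like class, the named neuronal class with the highest Pde4b mean, summed to 7.08 and 7.50 against 11.9 and 8.36 CPM, with 2 of 5 higher and 0 lower. Committed OPC markers, Tcf7l2 and Enpp6 among them, summed in the same order to 1.48 and 1.77 against 1.35 and 1.55 CPM (1 of 4 higher, 0 lower). CA2 markers summed to 17.0 and 19.0 against 19.1 and 18.3 CPM (1 of 6 higher, 0 lower). Deep-layer markers summed to 3811 and 4639 against 4242 and 4228 CPM (0 of 4 higher, 0 lower). The same list summed to 626 to 742 CPM in CA1 and 351 to 381 in granule nuclei. It is therefore not specific in CA3, and its sum cannot show whether deep-layer nuclei were among them. No marker list was made for the other unnamed clusters with more Pde4b. The part of any of these nuclei in the result was not tested. In the ventral CA3 class Pde4b had 367 and 375 CPM in the Control libraries against 450 and 402 in Kat6a-cKO, a log2 fold change of 0.21 (SE 0.097, edgeR adjusted p = 0.682).

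Pde4b was the 1 of 10 members with an unadjusted p under 0.05 in CA3, against 8.0% of 14606 genes tested. The groups did not overlap for 5 of 10, Pde4b among them, against 37.2%. The edgeR call rate over all genes was 0.0274% and the DESeq2 call rate 0.246%. Pde4d, for which CA3 was among the 3 highest classes, had a log2 fold change of -0.13 (SE 0.076, edgeR adjusted p = 0.729). Pde9a had -0.80 (SE 0.438, edgeR adjusted p = 0.703) on 10 to 29 UMIs per library. The median log2 fold change of the 10 members was 0.05.

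In dentate granule nuclei Pde1a had 104 and 110 CPM in the Control libraries against 131 and 140 in Kat6a-cKO. Both Kat6a-cKO libraries were above both Control libraries, and the log2 fold change was 0.35 (SE 0.064, edgeR adjusted p = 0.0561, DESeq2 adjusted p = 0.00473). Over 12 alternatives the log2 fold change ran from 0.32 to 0.54 and the adjusted p from 0.00153 to 0.9995. Both upper ends are those with free RNA subtracted as planned, which in this class removed more than the most that free RNA could give. The granule class joined 4 clusters with different Pde1a levels, so the values were also read within them. In cluster 0, where Pde1a was highest, it had 209 and 197 CPM in the Control libraries against 213 and 225 in Kat6a-cKO. In cluster 2 the values were 33.3 and 29.1 against 41.1 and 41.3 CPM, and in cluster 3 they were 40.1 and 35.0 against 46.8 and 61.7. In cluster 4 they were 55.5 and 63.8 against 92.2 and 96.8 CPM. Both Kat6a-cKO libraries were thus above both Control libraries in 4 of 4 clusters. The clusters come from the same 4 libraries and are not replicates, and how many other genes do so was not counted. The share of cluster 0 in the granule nuclei was 31.9% and 37.8% in the Control libraries against 40.9% and 40.4% in Kat6a-cKO. With each cluster held at a fixed weight, the log2 ratio of the means was 0.24, against 0.34 from the class sums.

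**Figure D3:**
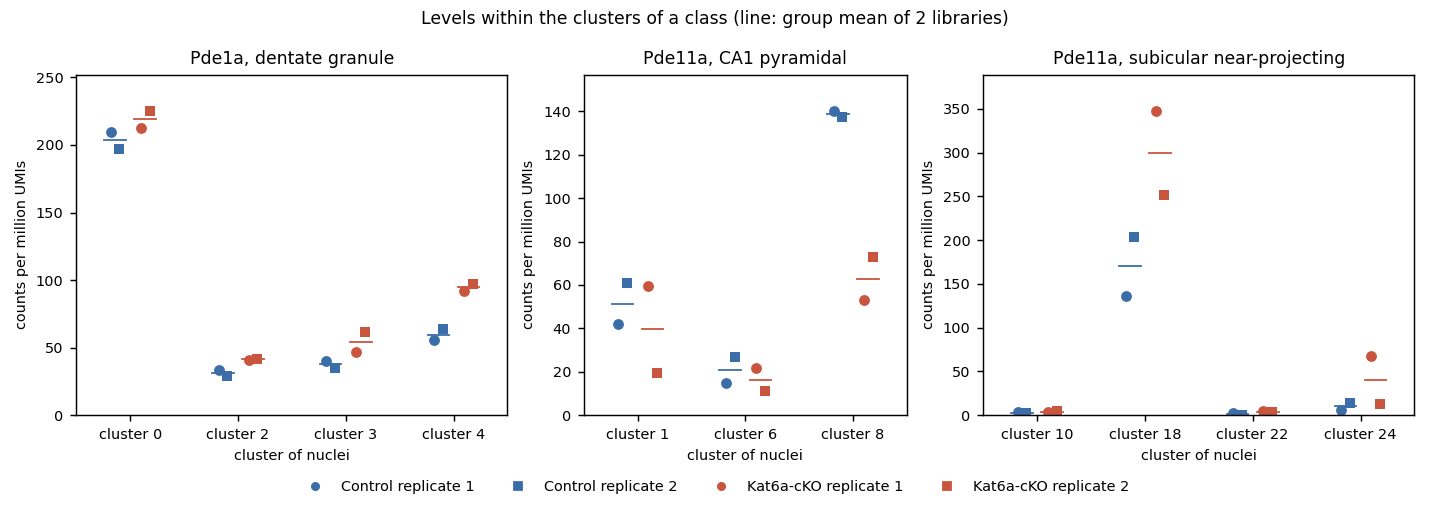
CPM per library within the clusters that make up a class, for Pde1a in 4 dentate granule clusters and Pde11a in 3 CA1 and 4 subicular-like clusters, with Control and Kat6a-cKO points side by side. Pde1a is higher in both Kat6a-cKO libraries in each granule cluster, and Pde11a is lower in both in CA1 cluster 8 and higher in both in subicular-like clusters 10, 18 and 22, the first and last of these at under 5 CPM.

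Pde1a was the 1 of 10 members with an unadjusted p under 0.05 in the granule class, against 9.94% of 17311 genes. The groups did not overlap for 3 of 10, Pde1a among them, against 39.1%. edgeR called 0.433% of all genes and DESeq2 1.28%. Pde7b, most of whose UMIs came from granule nuclei, had a log2 fold change of 0.11 (SE 0.071, edgeR adjusted p = 0.672) and Pde8b 0.13 (SE 0.062, edgeR adjusted p = 0.549). Pde4b had 28.7 and 27.9 CPM in the Control libraries against 30.8 and 28.1 in Kat6a-cKO. The median over the members was 0.09 on the log2 scale.

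In CA1 the lowest p among the members was that of Pde11a. It had 58.7 and 70.6 CPM in the Control libraries against 47.7 and 28.2 in Kat6a-cKO, a log2 fold change of -0.75 (SE 0.208, edgeR unadjusted p = 0.00603, adjusted p = 0.27, DESeq2 adjusted p = 0.83). Over 12 alternatives it ran from -1.19 without Kat6a-cKO replicate 1 to -0.39 without Kat6a-cKO replicate 2, and the adjusted p from 1.32e-10 to 0.83. The groups did not overlap, but the clusters differed. In CA1 cluster 8, where Pde11a was highest, it had 140 and 137 CPM in the Control libraries against 53.1 and 72.8 in Kat6a-cKO. In cluster 1 it had 42.1 and 60.7 against 59.5 and 19.6 CPM, and in cluster 6 14.8 and 26.8 against 21.6 and 10.97, both with overlapping groups. Pde7b in CA1 had 6.93 and 5.64 CPM in the Control libraries against 11.04 and 7.56 in Kat6a-cKO (log2 fold change 0.58, SE 0.217, edgeR adjusted p = 0.438), and free RNA could give up to 3.51 CPM of the mean over the 4 libraries. 2 of 10 members had an unadjusted p under 0.05, against 9.2% of 16046 genes, and 5 of 10 did not overlap, against 38.8%. The call rates over all genes were 0.162% by edgeR and 0.829% by DESeq2, and the median of the members was 0.09 on the log2 scale.

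In interneurons, where Cre is not expected, 1 of 10 members had an unadjusted p under 0.05, against 6.47% of 14687 genes. This was Pde2a, with 17 and 14 UMIs in the Control libraries against 3 and 8 in Kat6a-cKO (log2 fold change -1.48, SE 0.546, edgeR adjusted p = 0.615). 4 of 10 members did not overlap, against 35.1%, and the call rates were 0.0272% by edgeR and 0.0817% by DESeq2. Pde11a, Pde10a and Pde9a each had an interneuron group as highest named class, though for Pde10a its range overlapped that of CA1. In the pooled interneurons these genes had log2 fold changes of 0.01 (SE 0.082), 0.10 (SE 0.076) and 0.11 (SE 0.074), with edgeR adjusted p-values of 0.996, 0.893 and 0.869. The 95% interval of Pde11a in interneurons ran from -0.17 to 0.19.

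**Figure D4:**
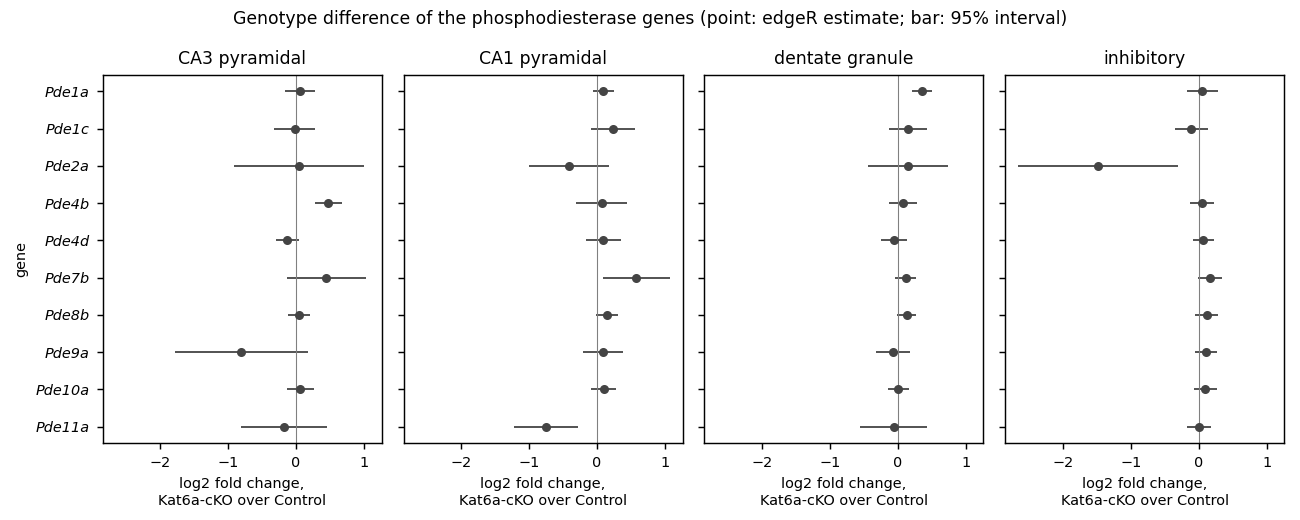
Log2 fold change, Kat6a-cKO against Control, of the 10 phosphodiesterase genes in CA3, CA1, dentate granule and inhibitory nuclei, with bars that span the 95% interval from the SE and degrees of freedom of edgeR's fit. Pde4b in CA3 (0.48), Pde1a in dentate granule nuclei (0.35) and Pde7b in CA1 (0.58) have bars above 0, and Pde11a in CA1 (-0.75) and Pde2a in interneurons (-1.48), whose adjusted p-value is 0.615 from edgeR, have bars below 0. The other bars cross 0.

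Over the other 9 classes, 21 of 74 fits of a member had an unadjusted p under 0.05, against 7.6% of all fits, and 0 were called by edgeR. DESeq2 called 1 of 74, against 0.135%. The edgeR call rates in these classes were 0.134% in ventral CA1, 0.0577% in the subicular-like class, 0.244% in immature dentate nuclei, 0.0342% in OPC and 0.125% in ventral CA3. In deep-layer excitatory nuclei the rate was 0.791%, in oligodendrocytes 0.0129%, in CA2 0.0189% and in astrocytes 0.0312%. The 74 fits share libraries and are not independent.

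The deep-layer excitatory class held 5 of those 21, of 8 members tested there, against 10.2% of 9358 genes. Pde1c had 39.3 and 43.0 CPM in the Control libraries against 87.6 and 55.9 in Kat6a-cKO (log2 fold change 0.88, SE 0.231, edgeR adjusted p = 0.0887). Pde4b went the other way from CA3, with 674 and 763 CPM in the Control libraries against 426 and 549 in Kat6a-cKO (log2 fold change -0.52, SE 0.138, edgeR adjusted p = 0.0935). Pde8b had -0.46, Pde9a 0.63 and Pde1a 0.28 on the log2 scale, with edgeR adjusted p-values of 0.201, 0.221 and 0.433. These nuclei numbered 76 to 155 per library.

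In the subicular-like class Pde11a had 46.5 and 72.5 CPM in the Control libraries against 112 and 92.0 in Kat6a-cKO, in the opposite direction to CA1. The log2 fold change was 0.81 (SE 0.177, edgeR adjusted p = 0.186, DESeq2 adjusted p = 0.0147), and over 12 alternatives the adjusted p ran from 2.92e-11 to 0.474. Over the same alternatives the log2 fold change ran from 0.53 to 1.11, with both ends from fits without a library. Cluster 18, led by Fn1 and Rxfp1, had the highest Pde11a level, with 136 and 204 CPM in the Control libraries against 347 and 252 in Kat6a-cKO. In cluster 24 the Pde11a values were 6.11 and 13.7 CPM in the Control libraries against 67.1 and 12.5 in Kat6a-cKO, which overlap. The other 2 clusters were low, with 3.12 and 1.87 against 3.42 and 4.77 CPM in cluster 10 and 2.13 and 0 against 4.52 and 2.995 in cluster 22, both without overlap. With fixed cluster weights the log2 ratio was 0.89. Pde4d and Pde10a in the same class had log2 fold changes of 0.30 and 0.28, with edgeR adjusted p-values of 0.426 and 0.448. With fixed cluster weights the log2 ratio of Pde4d was 0.10, against 0.29 from the class sums, and that of Pde10a 0.23 against 0.26.

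The remaining fits with an unadjusted p under 0.05 were scattered. In immature dentate nuclei Pde7b had 0.60, Pde1a 0.59 and Pde8b 0.43 on the log2 scale, with edgeR adjusted p-values of 0.26, 0.427 and 0.451. Ventral CA1 had Pde7b at -0.49, Pde1c at 0.35 and Pde4d at 0.21. Ventral CA3 had Pde7b at -1.67 and Pde11a at -1.04, both with 1 Control library far above the other 3, and Pde4b as given above. OPC had Pde9a at 1.01, oligodendrocytes Pde8b at 1.19, CA2 Pde8b at 0.26 and astrocytes Pde1c at -0.58. The oligodendrocyte value of Pde8b rested on Kat6a-cKO replicate 2, at 170.9 CPM against 43.3 to 62.8 in the other libraries.

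Whether the genotype difference itself differed between classes was tested in edgeR as an interaction, with libraries as blocks, for 3 pairs of classes. For Pde4b the difference in CA3 exceeded that in dentate granule nuclei by 0.39 on the log2 scale (SE 0.072, edgeR adjusted p = 0.0108). The log2 ratio of CA3 to granule nuclei was 3.53 and 3.68 in the Control libraries against 4.06 and 3.97 in Kat6a-cKO, without overlap. Of the 28.9 CPM in granule nuclei up to 18.2 could be free RNA, so this comparison sets CA3 against a class with little of the transcript. With that much free RNA subtracted, the log2 fold change of Pde4b in granule nuclei was -0.35 in place of 0.07. Against CA1 the Pde4b difference was 0.38 (SE 0.125, edgeR adjusted p = 0.383), not a call. It ran from 0.065 without Control replicate 1 to 0.69 without Control replicate 2, and over 6 alternatives it was called in 2, with adjusted p-values of 2.94e-14 to 0.958. Without Kat6a-cKO replicate 1 the CA3 to granule difference was 0.36 with an adjusted p of 0.0753, and over 6 alternatives the adjusted p ran from 3.64e-05 to 0.0753.

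For Pde1a the difference in CA1 was 0.29 below that in dentate granule nuclei (interaction -0.29, SE 0.054, edgeR adjusted p = 0.039). The test used class sums, from which the log2 ratio of the means was 0.34 in granule nuclei and 0.07 in CA1. With fixed cluster weights, which the test did not use, these ratios were 0.24 and 0.07. In CA1 Pde1a had 1203 and 1278 CPM in the Control libraries against 1279 and 1319 in Kat6a-cKO. Without Kat6a-cKO replicate 1 or 2 the adjusted p was 0.152 or 0.274, and the lowest over 6 alternatives was 0.000327. Against CA3 the difference was also -0.29 (SE 0.079, edgeR adjusted p = 0.213). The call rates of the interactions over all genes were 0.401% for CA3 against CA1, 0.272% for CA3 against granule nuclei and 0.312% for CA1 against granule nuclei, and the 3 pairs share classes.

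**Figure D5:**
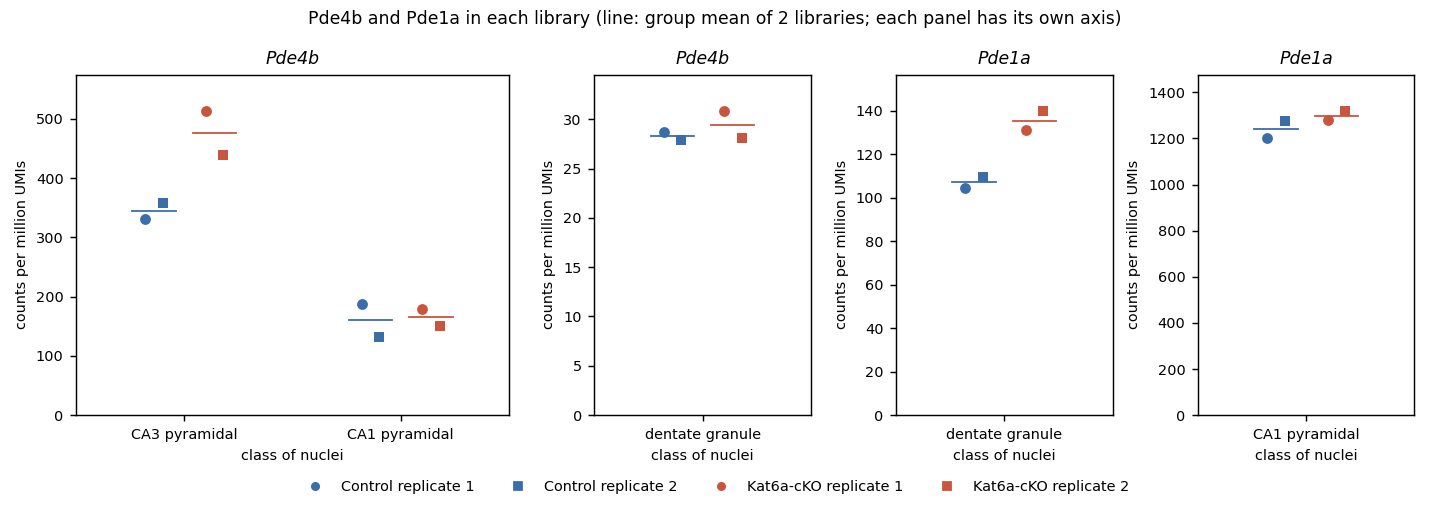
CPM per library of Pde4b in CA3, CA1 and dentate granule nuclei and of Pde1a in dentate granule and CA1 nuclei, each panel from 0, with Control and Kat6a-cKO libraries side by side. Pde4b in CA3 lies at 332 and 358 CPM in the Control libraries against 513 and 439 in Kat6a-cKO, and Pde1a in granule nuclei at 104 and 110 against 131 and 140 CPM.

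The wider cyclic nucleotide pathway was measured next, with the cyclases that make the messengers, the kinases and exchange factors that read them, the anchoring proteins that hold these together and the channels they open. Of the 69 listed genes 31 to 60 were tested per class, and 0 were called in either direction in any of the 13 classes or in the 3 interactions, by edgeR, and 0 in the classes by DESeq2. At an unadjusted p under 0.05 there were 2 higher and 1 lower of 60 in dentate granule nuclei, 2 higher and 0 lower of 59 in CA1, 0 higher and 3 lower of 56 in CA3 and 3 higher and 1 lower of 55 in interneurons. The shares of all genes tested in these classes were 9.94%, 9.2%, 8.0% and 6.47% in the same order. In CA3 the lowest p-values were those of Npr1, a natriuretic peptide receptor with guanylyl cyclase activity (log2 fold change -0.75, edgeR adjusted p = 0.521), and Prkaca, a catalytic subunit of protein kinase A (-0.30, edgeR adjusted p = 0.523). Prkaca was also among the 2 lowest p-values in interneurons (-0.22), OPC (-0.63) and oligodendrocytes (-0.61), with edgeR adjusted p-values of 0.635, 0.382 and 0.868. Its CA3 values were 70.8 and 85.8 CPM in the Control libraries against 54.8 and 71.0 in Kat6a-cKO, which overlap.

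In dentate granule nuclei the lowest p was that of Rapgef4, the cyclic AMP-activated exchange factor Epac2 (0.18, edgeR adjusted p = 0.327). Rapgef4 was also named in deep-layer excitatory nuclei (-0.41) and CA2 (-0.21), in the opposite direction, with edgeR adjusted p-values of 0.237 and 0.60. In CA1 they were Pde6b (1.28) and Pde6a (0.45), both known from photoreceptors and here at mean levels of 0.379 against 0.921 and 8.27 against 11.1 CPM, with edgeR adjusted p-values of 0.319 and 0.352. In interneurons Hcn3 had 0.35 (edgeR adjusted p = 0.574). The lowest adjusted p of the pathway genes in immature dentate nuclei was that of the calmodulin-stimulated cyclase Adcy1 (0.67, edgeR adjusted p = 0.148), beside Pde6a (1.76, 0.345). In OPC it was that of the kinase inhibitor Pkig (0.84, edgeR adjusted p = 0.151). The other classes gave Prkacb (0.26) and Adcy10 (0.54) in ventral CA1, Akap13 (0.25) and Adcy5 (0.26) in the subicular-like class, and Akap12 (-0.37) and Adcy9 (-0.17) in ventral CA3. They also gave Prkar1b (-0.29) in deep-layer nuclei, Prkg1 (0.99) in oligodendrocytes, Adcy6 (-0.82) in CA2, and Pde8a (1.101) and Pkia (-0.54) in astrocytes, with edgeR adjusted p-values of 0.543 to 0.868.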

How the data were processed

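The deposited files hold raw UMI counts per gene and barcode from the authors, on mm10 with Seurat 4.0.1 per the submitters' processing notes. The aligner and the counting of reads shared by overlapping genes are not given in the sources used here. Barcodes with at least 5000 UMIs were kept, doublets were removed per library with Scrublet (3.05% to 3.77%), and nuclei were clustered with scanpy 1.11.5 and leidenalg 0.10.2 (2000 variable genes, 30 components, resolution 1) without the members, the pathway list, Kat6a, Rspo2, the Cre entry and mitochondrial genes. The authors' cell labels were not used. Totals were 186897245 and 183440076 UMIs in Control and 177249737 and 171323466 in Kat6a-cKO. Samples were grouped by title.

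Counts were summed per library and class. Classes with at least 30 nuclei in every library were tested with edgeR 4.0.16 in R 4.3.3 (TMM, filterByExpr, Benjamini-Hochberg), and interactions had the library as a block. The interneuron groups were tested only as their pooled sum and not singly, whatever their number of nuclei. Intervals of 95% use the SE and degrees of freedom of that fit. The script was tested on simulated data. Alternatives were DESeq2 1.42.0, no filter on low counts, a replicate block, a minimum of 2000 UMIs, resolution 2, doublets kept, free RNA removed, and each library left out. The planned scaling of free RNA gave shares above the class total in OPC and oligodendrocytes and was not run there. In dentate granule nuclei, where it was run, it gave shares of 0.208 to 0.218, above the ceiling of 0.033 to 0.043. It thus removed more there than the level given as the most that free RNA could give. The version with that ceiling and the reading within clusters were chosen after seeing the data. The free RNA levels in the report use the version with the ceiling. Sequences are from RefSeq, GRCm38.p6, and gene positions from GENCODE M21.

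The members and gene lists were chosen with earlier results of these data known. Named are all 10 members, per class the 2 pathway genes with the lowest p where none passed the threshold, and per member the 3 genes most similar in pattern, some of which are not reported here. Clusters were singled out after their values were seen.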

Additional observations from a re-analysis of the deposited data

Results flagged for a closer look

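For 2 members the Kat6a-cKO effect differed between classes by the edgeR interaction test. The effect on Pde4b was larger in CA3 than in dentate granule nuclei by 0.39 on the log2 scale (adjusted p = 0.0108 over 17268 genes, of which 0.272% were called), and the ratio of CA3 to granule nuclei was higher in both Kat6a-cKO libraries than in both Control libraries. Without Kat6a-cKO replicate 1 the adjusted p was 0.0753, and of the 28.9 CPM of Pde4b in granule nuclei up to 18.2 could be free RNA. For Pde1a the log2 ratio of the means was 0.34 in granule nuclei and 0.07 in CA1 from class sums. With fixed cluster weights it was 0.24 and 0.07. By the test, which used class sums, the effect on Pde1a was smaller in CA1 than in dentate granule nuclei, with a difference of -0.29 (adjusted p = 0.039 over 17616 genes, of which 0.312% were called). Without Kat6a-cKO replicate 1 or 2 the adjusted p was 0.152 or 0.274.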

How the results depend on the processing

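The highest class was the same for 6 to 10 of the 10 members under the alternatives, 6 with a minimum of 2000 UMIs and 6 with free RNA subtracted as planned, where OPC and oligodendrocytes were absent. The log2 fold change kept its sign under 12 of 12 alternatives for Pde4b in CA3 (called in 5, 2 of them without a library), Pde1a in dentate granule nuclei (called in 3, 0 without a library), Pde11a in CA1 (called in 4, 2 without a library) and Pde11a in the subicular-like class (called in 5, 3 without a library). A fit without a library leaves 1 library in a group, which is assumed to vary like the other group, so its p-values, the lowest of those given for the subicular-like class among them, rest on that. The interactions kept theirs in 6 of 6, called in 5 for Pde4b in CA3 against granule nuclei, in 2 for Pde4b in CA3 against CA1 and in 4 for Pde1a in CA1 against granule nuclei, of which 3, 1 and 2 without a library. Of the 40 log2 fold changes of members in the 4 main classes, 22 changed sign under at least 1 alternative. Counts of called genes moved most. The cause was not tested.

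With DESeq2, without the filter on low counts and with free RNA subtracted, the genes called were 221, 622 and 0 in dentate granule nuclei (75 in the report), 133, 522 and 3 in CA1 (26), 36, 312 and 1 in CA3 (4) and 12, 140 and 0 in interneurons (4). With the ceiling they were 23 in granule nuclei, 19 in CA1, 10 in CA3 and 0 in interneurons. In granule, CA1 and CA3 nuclei the planned subtraction was above that ceiling in every library, so its counts overstate the dependence on free RNA. CA1 gave 69 with a minimum of 2000 UMIs and 85 at resolution 2. Members called, 0 in the report, became 1 in granule nuclei and 1 in CA3 by DESeq2, and 1, 2 and 1 in granule nuclei, CA1 and CA3 without the filter. Interaction calls without the filter were 216 for CA3 against CA1, 122 for CA3 against granule nuclei and 250 for CA1 against granule nuclei, with 2, 2 and 2 members, and 104, 31 and 87 with a minimum of 2000 UMIs.

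The replicate block gave 205 called genes in granule nuclei, 431 in CA1, 91 in CA3 and 7 in interneurons, with 1, 1, 1 and 0 members. The labels do not say that equal numbers mark a shared litter or day, there are only 2 pairs, and deviations of equally numbered libraries correlated at 0.114 in CA3, 0.144 in CA1, 0.0834 in granule nuclei and 0.0827 in interneurons across genes.

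Signs of log2 fold changes reversed in dentate granule nuclei for Pde4b with the ceiling (-0.35) and for Pde10a without the filter (-0.0087), with free RNA subtracted (-0.047) and with the ceiling (-0.00202). They reversed in CA1 for Pde9a at resolution 2 (-0.0063) and in CA3 for Pde1c with free RNA subtracted (0.0100), Pde2a and Pde11a with doublets kept (-0.091, 0.15) and Pde7b at 2000 UMIs (-0.083). In interneurons they reversed for Pde1a at 2000 UMIs and resolution 2 (-0.084, -0.057), Pde1c at resolution 2 (0.013) and Pde11a at 2000 UMIs, at resolution 2, with free RNA subtracted and with the ceiling (-0.027, -0.017, -0.019, -0.019). Elsewhere they reversed for Pde1a in immature dentate nuclei at resolution 2 (-0.48) and Pde8b in oligodendrocytes at 2000 UMIs (-0.063).

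With each library left out in turn, called genes ranged from 78 to 280 in granule nuclei, 17 to 248 in CA1, 3 to 319 in CA3 and 24 to 134 in interneurons, and called members from 0 to 1 in CA1 and CA3. Interaction calls ranged from 26 to 233 for CA3 against CA1, 52 to 153 for CA3 against granule nuclei and 57 to 243 for CA1 against granule nuclei, with 0 to 2, 1 to 2 and 0 to 3 members. The Pde4b interaction ranged from 0.36 to 0.47 against granule nuclei and from 0.065 to 0.69 against CA1, and that of Pde1a from -0.31 to -0.24. Log2 fold changes changed sign for these members. In granule nuclei the ranges were Pde1c -0.078 to 0.33, Pde4b -0.021 to 0.15, Pde4d -0.18 to 0.056, Pde9a -0.21 to 0.066, Pde10a -0.0702 to 0.0701, Pde11a -0.25 to 0.13. In CA1 the ranges were Pde1c -0.0081 to 0.45, Pde4b -0.19 to 0.38, Pde4d -0.084 to 0.30, Pde9a -0.055 to 0.24. In CA3 the ranges were Pde1a -0.0898 to 0.24, Pde1c -0.24 to 0.19, Pde2a -0.23 to 0.38, Pde10a -0.0604 to 0.18. In interneurons the ranges were Pde1a -0.15 to 0.23, Pde1c -0.30 to 0.096, Pde4b -0.067 to 0.17, Pde4d -0.00055 to 0.13, Pde10a -0.0019 to 0.19, Pde11a -0.10 to 0.13. In immature dentate nuclei the ranges were Pde1a -0.027 to 0.92.

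Free RNA subtraction as planned was not run in OPC and oligodendrocytes. The minimum of 2000 UMIs gave no astrocyte class, but it gave a microglia class of 259 to 443 nuclei per library. Few UMIs stood behind Pde2a in interneurons, 3 to 17 per library, and behind Pde9a in CA2 and CA3, 1 to 29.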
